A study of Mus musculus with 12 samples.

Results

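Pde10a, the gene targeted in this mouse study, lies on chromosome 17 (GRCm38 chr17:8525372-8986648, + strand), and the 7 genes described here are its neighbours within 5 Mb: Tmem181a, Tmem181c-ps, Rsph3b, Map3k4, Serac1, Gm16046 and 1700010I14Rik. They were chosen by their position and by their counts in hearts labelled PDE10A knockout (KO) against hearts labelled wild type (WT), within vehicle and within doxorubicin (DOX). They are 7 of the 55453 gene symbols with a row in the deposited counts and 7 of the 14757 that passed a filter on low counts. Of the deposited symbols matched to a single gene of the annotation, 165 lie within 5 Mb of Pde10a, the 7 included and Pde10a left out. Among these, 109 had at least 1 count and 52 passed the filter. Because the genotype contrasts chose the genes, their KO and WT values are a description. No p-value is given for them in these contrasts, and the counts of called genes that include them are read as nothing more than what the choice fixed.

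RNA from hearts of C57BL/6J mice, male or female per the labels, was sequenced as polyadenylated RNA in 12 libraries, 3 mice in each of 4 groups. The groups were KO mice given DOX (mice 18, 19 and 20), WT mice given DOX (mice 21, 22 and 24), KO mice given vehicle (mice veh_3393, veh_3394 and veh_3395) and WT mice given vehicle (mice 1, 2 and 3). DOX, an anthracycline cancer drug that damages the heart, was injected once at 15 mg/kg, with 7 days of treatment per the protocol. The vehicle was a mixture of DMSO and cyclodextrin, ages are not given in the labels, and the protocol also describes the PDE10A inhibitor TP-10, with which no library here is labelled. The sources used here give neither the strain of the cells in which the KO allele was made, nor the number of backcrosses, nor whether WT mice were littermates.

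A gene knocked out in embryonic stem cells of one strain and crossed into another keeps, next to the targeted site, a stretch of donor chromosome that is inherited with it. Genes in that stretch can differ in sequence or in expression between knockout and wild-type mice for reasons that have nothing to do with the loss of the targeted gene, and they are known as passenger genes. Pde10a itself encodes a phosphodiesterase that breaks down cAMP and cGMP. The counts carry no alleles, so whether the 7 genes lie on donor sequence was not tested.

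Positions were as follows, all on chromosome 17 of GRCm38. On the lower-numbered side of Pde10a lie Serac1 (chr17:6042196-6079741, - strand, 17 exons), Tmem181a (chr17:6256860-6308314, + strand, 17 exons), Tmem181c-ps (chr17:6613753-6639790, - strand) and Rsph3b (chr17:6904413-6948682, - strand, 9 exons), with gaps to Pde10a of 2.45, 2.22, 1.89 and 1.58 Mb. On the higher-numbered side 1700010I14Rik (chr17:8988333-9011949, + strand) begins 1685 bases past the end of Pde10a, on the same strand. Map3k4 (chr17:12227621-12318796, - strand, 30 exons) lies 3.24 Mb away, and Gm16046 (chr17:13675662-13683516, - strand), the farthest of the 7, lies 4.69 Mb away. Tmem181c-ps is annotated as an unprocessed pseudogene, Gm16046 as a lincRNA and the other 5 as protein coding.

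The Tmem181 and Rsph3 genes have near-identical copies in the same interval, and the copies are shown because some reads could match several of them. Each line gives 90 bases of the transcript, 5′ to 3′, with capitals at the positions where the copies differ within the stretch shown. The first 3 are Tmem181a at chr17:6280608-6280697 (+ strand), Tmem181b-ps at chr17:6466923-6467012 (- strand) and Tmem181c-ps at chr17:6639691-6639780 (- strand).
Tmem181a: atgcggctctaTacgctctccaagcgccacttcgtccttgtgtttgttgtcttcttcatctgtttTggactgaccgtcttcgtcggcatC
Tmem181b-ps: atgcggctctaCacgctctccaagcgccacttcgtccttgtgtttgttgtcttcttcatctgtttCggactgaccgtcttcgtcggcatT
Tmem181c-ps: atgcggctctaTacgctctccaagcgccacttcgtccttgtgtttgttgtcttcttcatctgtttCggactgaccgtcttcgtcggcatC
The other pair is Rsph3b at chr17:6948175-6948264 (- strand) and Rsph3a at chr17:7946017-7946106 (+ strand).
Rsph3b: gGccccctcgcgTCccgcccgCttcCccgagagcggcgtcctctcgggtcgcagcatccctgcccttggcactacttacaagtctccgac
Rsph3a: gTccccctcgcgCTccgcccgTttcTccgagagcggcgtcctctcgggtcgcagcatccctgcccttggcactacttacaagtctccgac
Counted from 1 at the 5′ end of the stretch, Tmem181c-ps differs from Tmem181a by T66C, Tmem181b-ps by T12C, T66C and C90T, and Rsph3a differs from Rsph3b by G2T, T13C, C14T, C22T and C26T. Over the aligned transcripts, Tmem181a and Tmem181c-ps were 99.33% identical (9 differences in 1338 bases), and 61.8% of the 50-base words of the pseudogene were also in Tmem181a. Tmem181a and Tmem181b-ps were 99.5% identical (7 differences in 1413 bases), and Rsph3b and Rsph3a were 99.18% identical (18 differences in 2186 bases). The sources used here do not say how multiply mapping reads were treated, so the split of reads among such copies is uncertain.

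Library totals ran between 23846398 and 32921876 counts. Levels are given as CPM, counts scaled to a library of 1000000 with TMM factors. Xist, a female marker, reached at most 0.236 CPM in any of the 12 libraries. Ddx3y, a male marker, was never under 24.5 CPM, so all 12 libraries read as male. All 7 cardiomyocyte markers were present in every library. The 5 atrial markers summed to 1585 CPM in KO-labelled DOX mouse 18 and 2140 CPM in KO-labelled vehicle mouse veh_3394, against 61.8 to 258.8 CPM in the other 10 libraries. The share of mitochondrially encoded counts was 19.5% in WT-labelled vehicle mouse 2 and 24.4% to 33.6% in the others.

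Pde10a went against its labels. It had 8.27, 8.48 and 9.09 CPM in KO-labelled DOX hearts, against 2.69, 2.07 and 1.78 CPM in WT-labelled DOX hearts. Under vehicle it had 9.31, 11.9 and 9.13 CPM in KO-labelled hearts, against 3.38, 1.00 and 1.86 CPM in WT-labelled hearts. Every library labelled KO lay above every library labelled WT, so genotypes below are those of the labels and each direction between KO and WT rests on them. A count over the whole gene cannot show which exons were transcribed.

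Of the 7 genes, 4 were higher and 3 lower in KO-labelled than in WT-labelled hearts. Higher were Tmem181c-ps, 1700010I14Rik, Serac1 and Map3k4, and lower were Tmem181a, Rsph3b and Gm16046. Under vehicle the KO-labelled and WT-labelled libraries did not overlap for any of the 7. Under DOX they did not overlap for 6, the exception being Gm16046. Over all genes tested, 31.3% did not overlap under vehicle and 19.6% under DOX. Hearts were sequenced as bulk tissue, in which fewer cells of a type and less RNA per cell cannot be told apart.

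**Figure D1:**
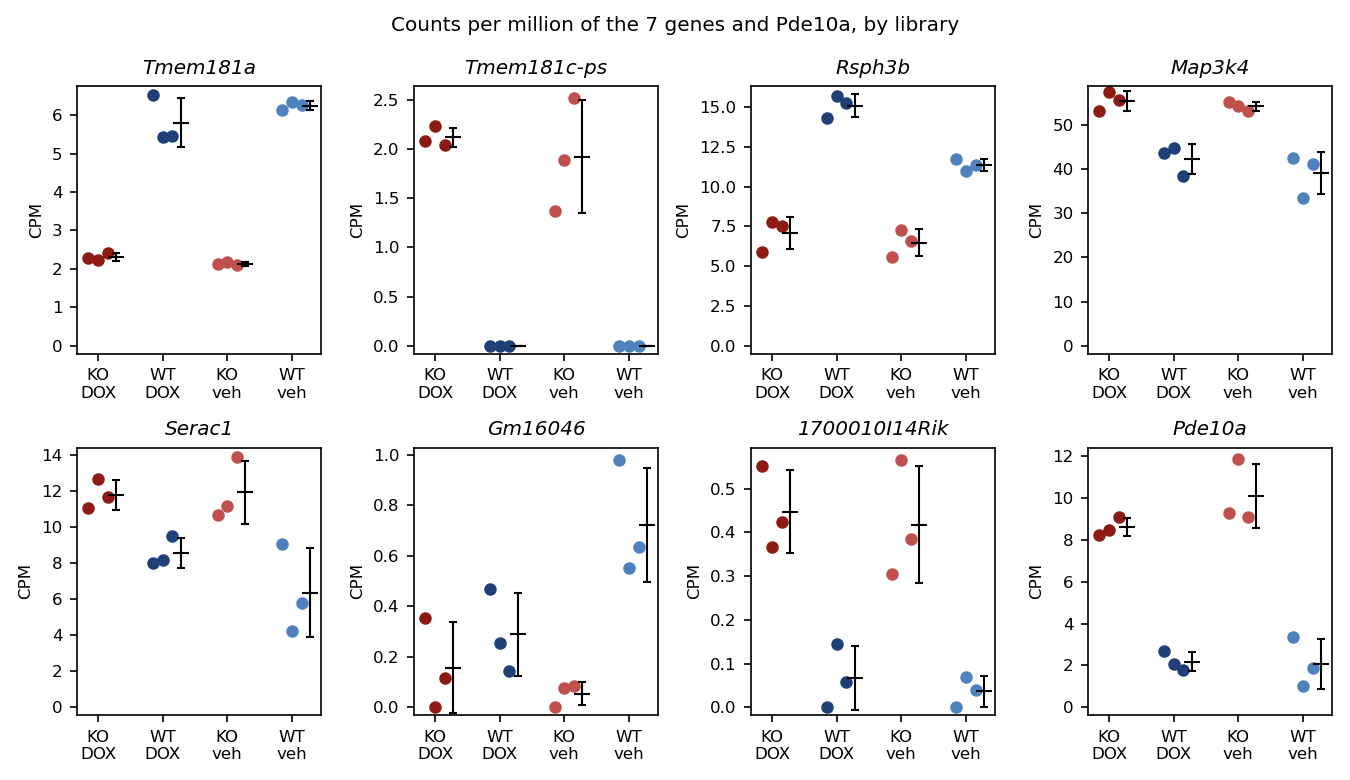
CPM of the 7 genes and of Pde10a in each library, with a panel per gene and the groups KO DOX, WT DOX, KO vehicle and WT vehicle from left to right; points are libraries, and the bar beside them is the mean with its SD (n = 3). Tmem181c-ps sits at 0 in all 6 WT-labelled libraries and between 1.37 and 2.52 CPM in the 6 labelled KO. Comparing KO-labelled with WT-labelled libraries within a treatment, only Gm16046 under DOX overlaps.

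Tmem181a encodes a multi-pass membrane protein, which in human cells is needed for the entry of a bacterial cytolethal distending toxin. It had 2.28, 2.23 and 2.43 CPM in KO-labelled DOX hearts, against 6.54, 5.42 and 5.47 CPM in WT-labelled DOX hearts. Under vehicle it had 2.13, 2.19 and 2.09 CPM in KO-labelled hearts, against 6.14, 6.35 and 6.27 CPM in WT-labelled hearts. The 6 KO-labelled libraries lay within 2.09 to 2.43 CPM and the lowest WT-labelled library was at 5.42 CPM, a gap wider than the spread within either label. The log2 fold change, KO over WT, was -1.33 (SE 0.136) under DOX and -1.55 (SE 0.138) under vehicle. The gene shares 580 exon bases with Dynlt1a on the opposite strand, and the strand setting of the counting is not given. Dynlt1a averaged at most 0.243 CPM in any group.

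Tmem181c-ps was not counted once in the WT-labelled libraries. It had 2.09, 2.23 and 2.04 CPM in KO-labelled DOX hearts (53, 61 and 53 counts) and 1.37, 1.89 and 2.52 CPM in KO-labelled vehicle hearts (36, 50 and 59 counts). Against a limit of 3 counts per WT-labelled library, it was at least 21-fold higher in KO-labelled than in WT-labelled hearts under DOX and at least 16.2-fold higher under vehicle. That limit covers counting error only.

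Tmem181b-ps, the third copy, is not among the 7 genes. It averaged 6.39 ± 0.151 CPM in KO-labelled DOX hearts and 3.37 ± 0.626 CPM in WT-labelled DOX hearts (SD, n = 3 each). Under vehicle it averaged 6.44 ± 0.29 CPM in KO-labelled hearts and 3.71 ± 1.30 CPM in WT-labelled hearts. Of the 3 copies, 1 was thus lower and the others higher in KO-labelled hearts under both treatments.

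Summed over the 3 copies, the difference between the labels was small. The sum was 10.8 ± 0.206 CPM in KO-labelled DOX hearts and 9.18 ± 1.14 CPM in WT-labelled DOX hearts, and 10.5 ± 0.478 CPM in KO-labelled vehicle hearts and 9.96 ± 1.20 CPM in WT-labelled vehicle hearts (SD, n = 3 each). The log2 fold change of the sum, KO over WT, was 0.24 (SE 0.12) under DOX and 0.08 (SE 0.121) under vehicle, opposite in sign to that of Tmem181a alone. The sums overlapped between the labels under vehicle, and under DOX those of KO-labelled hearts (10.6 to 11.0 CPM) lay just above those of WT-labelled hearts (8.08 to 10.4 CPM). Tmem181a took 21.4% ± 0.833 of the sum in KO-labelled DOX hearts and 63.4% ± 3.60 in WT-labelled DOX hearts. Under vehicle its share was 20.4% ± 1.30 in KO-labelled hearts and 63.4% ± 8.10 in WT-labelled hearts. What set the split of reads among the copies was not tested.

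**Figure D2:**
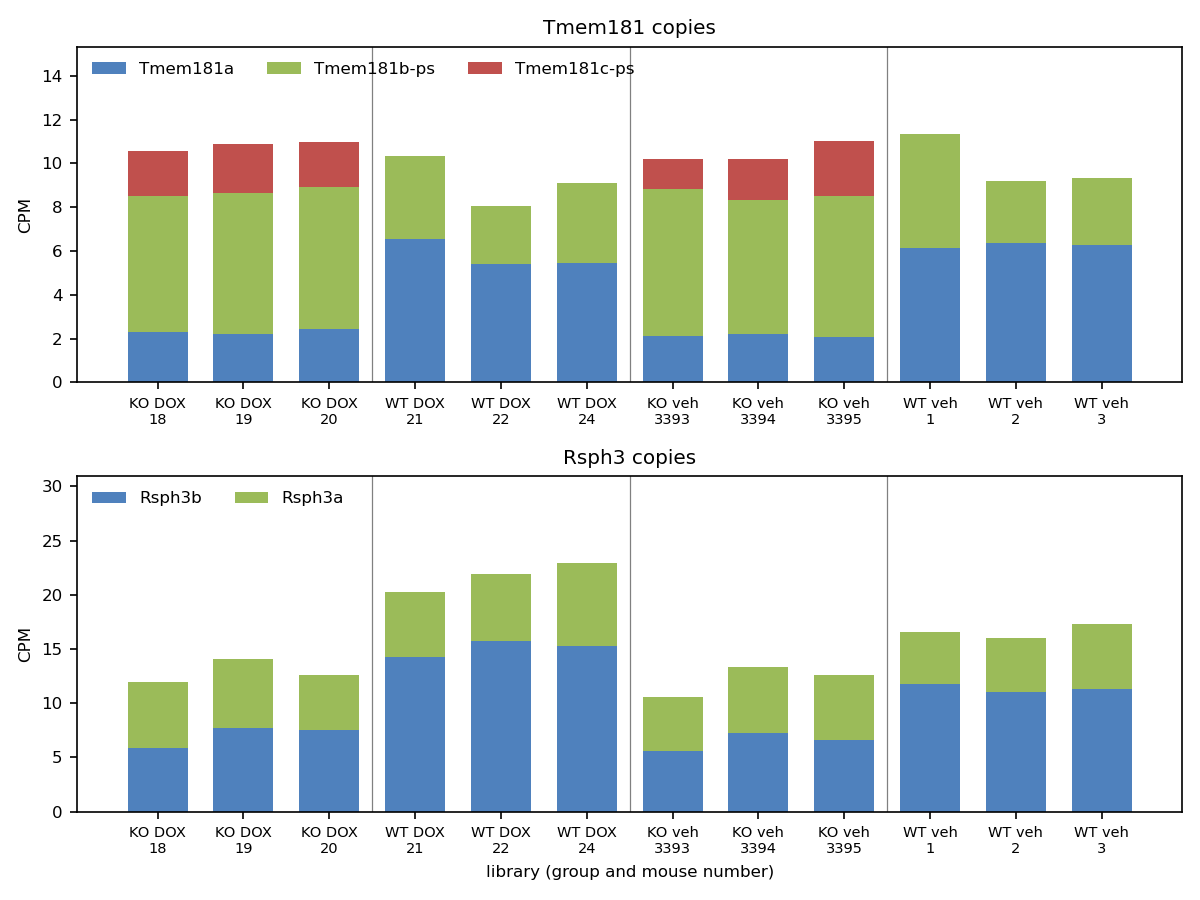
CPM of the Tmem181 copies (top) and the Rsph3 copies (bottom), stacked in each of the 12 libraries, which are named by group and mouse number. The Tmem181 bars differ little in height between KO-labelled and WT-labelled libraries and have a different split inside them, whereas the Rsph3 bars are shorter in KO-labelled than in WT-labelled libraries.

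Rsph3b encodes a radial spoke protein, part of the structure that regulates the beating of motile cilia. It had 5.90, 7.75 and 7.55 CPM in KO-labelled DOX hearts, against 14.3, 15.7 and 15.3 CPM in WT-labelled DOX hearts. With vehicle, Rsph3b had 5.59, 7.28 and 6.57 CPM in KO-labelled hearts, against 11.8, 11.0 and 11.3 CPM in WT-labelled hearts. The highest KO-labelled library was at 7.75 CPM and the lowest WT-labelled one at 11.0 CPM, and within WT the DOX libraries stood above the vehicle ones. The log2 fold change, KO over WT, was -1.09 (SE 0.13) under DOX and -0.81 (SE 0.131) under vehicle. It shares 90 exon bases with the antisense gene Gm49719, which averaged at most 0.0867 CPM in any group.

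Rsph3a, the copy of Rsph3b, did not mirror it. It had 6.06, 6.33 and 5.08 CPM in KO-labelled DOX hearts, against 5.96, 6.19 and 7.65 CPM in WT-labelled DOX hearts. With vehicle, Rsph3a had 4.98, 6.03 and 6.06 CPM in KO-labelled hearts, against 4.81, 4.97 and 5.99 CPM in WT-labelled hearts, so the labels overlapped under both treatments. With both copies summed, the log2 fold change, KO over WT, was -0.75 (SE 0.111) under DOX and -0.45 (SE 0.111) under vehicle. Unlike that of the Tmem181 copies, the sum was lower in every KO-labelled library, at 12.9 ± 1.08 CPM in KO-labelled DOX hearts and 21.7 ± 1.34 CPM in WT-labelled DOX hearts, and 12.2 ± 1.43 CPM in KO-labelled vehicle hearts and 16.6 ± 0.677 CPM in WT-labelled vehicle hearts (SD, n = 3 each).

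Map3k4 encodes a kinase at the head of the cascades to p38 and JNK, which is activated by GADD45 proteins. It had 53.0, 57.4 and 55.7 CPM in KO-labelled DOX hearts, against 43.5, 44.6 and 38.3 CPM in WT-labelled DOX hearts. With vehicle, Map3k4 had 55.2, 54.2 and 53.1 CPM in KO-labelled hearts, against 42.5, 33.5 and 41.2 CPM in WT-labelled hearts. The lowest KO-labelled library, at 53.0 CPM, stood above the highest WT-labelled one, at 44.6 CPM. The log2 fold change, KO over WT, was 0.39 (SE 0.0999) under DOX and 0.47 (SE 0.1) under vehicle. With between 1244 and 1569 counts in each KO-labelled library, it is the most deeply counted of the 7 genes, and its difference is the smallest in fold.

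Serac1 encodes a protein of phosphatidylglycerol remodelling, whose loss in people causes a disorder of mitochondria with altered cardiolipin. It had 11.0, 12.7 and 11.7 CPM in KO-labelled DOX hearts, against 7.98, 8.15 and 9.50 CPM in WT-labelled DOX hearts. With vehicle, Serac1 had 10.7, 11.2 and 13.9 CPM in KO-labelled hearts, against 9.03, 4.21 and 5.79 CPM in WT-labelled hearts. The labels did not overlap, but the WT-labelled vehicle libraries were spread widely, with mouse 1 near the DOX libraries. The log2 fold change, KO over WT, was 0.46 (SE 0.215) under DOX and 0.92 (SE 0.22) under vehicle. Its 3′ end shares 297 exon bases with Synj2 on the other strand, which averaged 60.4 ± 4.99 CPM in KO-labelled DOX hearts, 61.8 ± 5.65 in WT-labelled DOX hearts, 61.5 ± 1.69 in KO-labelled vehicle hearts and 49.3 ± 11.4 in WT-labelled vehicle hearts (SD, n = 3 each). Reads of that stretch cannot be given to either gene without the strand setting.

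The last pair rested on few counts. 1700010I14Rik, to which no role is given here, had 14, 10 and 11 counts in KO-labelled DOX libraries, against 0, 4 and 2 in WT-labelled DOX libraries. Under vehicle it had 8, 15 and 9 counts in KO-labelled libraries, against 0, 2 and 1 in WT-labelled libraries. On summed counts scaled for depth, the ratio of KO to WT was 6.67 under DOX (95% counting interval 2.78 to 19.4) and 10.7 under vehicle (3.35 to 54.7). It is the gene nearest to Pde10a on its higher-numbered side and starts 1685 bases downstream on the same strand. Whether any of its counts are reads that run on from Pde10a was not tested.

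Gm16046, an RNA with no known role stated here, had 9, 0 and 3 counts in KO-labelled DOX libraries, against 13, 7 and 5 in WT-labelled DOX libraries. Under vehicle it had 0, 2 and 2 counts in KO-labelled libraries, against 22, 16 and 16 in WT-labelled libraries. The groups stood apart under vehicle, where WT was 13.4 times KO (95% counting interval 4.95 to 51.1), and overlapped under DOX, where WT was 1.82 times KO (0.881 to 3.98). The overlap under DOX rested on mouse 18, with 9 counts: the fitted log2 fold change, KO over WT, was -0.86 (SE 0.804) with it and -2.23 without it. Without it the labels stood apart by little, with KO-labelled mouse 20 at 0.116 CPM and WT-labelled mouse 24 at 0.144 CPM. Mouse 18 was high in atrial markers, but so was KO-labelled vehicle mouse veh_3394, with 2 counts of Gm16046. The 95% intervals cover counting error only.

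Per base of transcript, the order of the 7 genes differed between the labels. In KO-labelled DOX hearts, Map3k4 stood at 5.44 RPKM (CPM per kilobase of summed exons), Serac1 at 2.57, Rsph3b at 2.27, Tmem181c-ps at 1.53, Tmem181a at 0.353, 1700010I14Rik at 0.195 and Gm16046 at 0.136 RPKM. In WT-labelled DOX hearts, Rsph3b stood highest at 4.85 RPKM, followed by Map3k4 at 4.14, Serac1 at 1.87, Tmem181a at 0.887, Gm16046 at 0.25 and 1700010I14Rik at 0.0295 RPKM, with Tmem181c-ps at 0. Of neighbours in this order, Serac1 and Rsph3b in KO-labelled DOX hearts lay within 1 SD of each other, as did 1700010I14Rik and Gm16046, so these are not ordered. Exon lengths are those of the annotation, not of the transcripts in the heart.

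Marker genes of other cells moved with some of these contrasts. Summed over 5 endothelial markers, none at 0, KO-labelled vehicle hearts held 486.9 to 533.3 CPM and WT-labelled vehicle hearts 640.8 to 849.2 CPM. The 4 neutrophil markers summed to 6.44 to 9.39 CPM in KO-labelled vehicle hearts and 1.96 to 3.21 CPM in WT-labelled vehicle hearts. Under DOX, the 5 atrial markers summed to 215.3 to 1585 CPM in KO-labelled hearts and 61.8 to 215.2 CPM in WT-labelled hearts, which did not overlap. The 5 erythroid markers summed under DOX to 0.708 to 213.2 CPM in KO-labelled hearts and 0.144 to 0.395 CPM in WT-labelled hearts, where 2 or 3 of them were at 0. The 5 smooth muscle and pericyte markers summed under DOX to 785.2 to 820.2 CPM in KO-labelled hearts and 636.1 to 776.3 CPM in WT-labelled hearts, and the 4 neutrophil markers to 3.90 to 5.28 CPM in KO-labelled hearts and 8.12 to 30.8 CPM in WT-labelled hearts. Their part in the values of the 7 genes was not tested. With mice veh_3394 and 18 both left out, each of the 6 genes that passed the filter kept its direction in both contrasts.

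Some titles carry a suffix 1 whose meaning is not given, among them all 3 KO-labelled DOX libraries. Within the libraries that carry it, and under vehicle also within those that do not, all 7 genes kept their direction. Tmem181a averaged 2.31 CPM in 3 KO-labelled and 5.44 CPM in 2 WT-labelled DOX libraries with the suffix. Under vehicle it had 2.14 CPM in 2 KO-labelled libraries and 6.14 CPM in 1 WT-labelled library with it, and 2.13 CPM in 1 KO-labelled library and 6.31 CPM in 2 WT-labelled libraries without it.

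The 7 genes were set beside all other genes of the interval. Called here means a Benjamini-Hochberg adjusted p below 0.05 over all 14757 genes by edgeR's quasi-likelihood test. Under DOX, 3 of the 52 genes tested within 5 Mb were called between the labels, all among the 7 (Tmem181c-ps higher, Tmem181a and Rsph3b lower), against 0.42% of all genes tested. Under vehicle, 8 of the 52 were called, the 7 genes among them, against 2.88% of all genes tested. The contrasts chose the 7 genes, so nothing is read from these counts, and some of the 7 passed the low-count filter through the label in which they are high. The filter's level of 0.377 CPM was reached by Tmem181c-ps and 1700010I14Rik in 0 of 6 WT-labelled libraries and by Gm16046 in 1 of 6 KO-labelled libraries.

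Of the genes chosen, Gm16046 stood nearest to the threshold under vehicle. The nearest gene left outside it was Ezr (adjusted p = 0.0525 by edgeR), which links membranes to actin and averaged 61.9 ± 3.14 CPM in KO-labelled and 46.2 ± 2.65 CPM in WT-labelled vehicle hearts. The genes next to Pde10a were not all called, which does not show that they were alike between the labels. T2, the nearest tested gene below Pde10a at 0.102 Mb, had a log2 fold change, KO over WT, of 0.98 (SE 0.573, adjusted p = 0.441) under DOX and 0.24 (SE 0.54, adjusted p = 0.812) under vehicle. It had 167 counts over all libraries. Under DOX it had 0.402 to 0.866 CPM in KO-labelled and 0.182 to 0.374 CPM in WT-labelled hearts, which did not overlap, as for 19.6% of all genes tested. Under vehicle the labels overlapped. Qk, an RNA-binding splicing regulator 1.22 Mb above Pde10a, had a log2 fold change of -0.00359 (SE 0.12, adjusted p = 0.993) under DOX and 0.09 (SE 0.12, adjusted p = 0.666) under vehicle, by edgeR.

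Called genes were also counted by distance from Pde10a, beside 0.42% of all genes tested under DOX and 2.88% under vehicle. The count within 5 Mb holds the chosen genes, so no trend with distance is read. Under DOX, 3 of 52 genes tested within 5 Mb were called (5.77%), 0 of 33 between 5 and 10 Mb, 3 of 170 between 10 and 20 Mb (1.76%) and 3 of 450 farther along the chromosome (0.667%). Under vehicle the counts were 8 of 52 (15.4%), 0 of 33, 16 of 170 (9.41%) and 12 of 450 (2.67%). The vehicle count within 5 Mb moved with single libraries. It was 3 without KO-labelled vehicle mouse veh_3393 or veh_3395 or WT-labelled vehicle mouse 3, 4 without KO-labelled vehicle mouse veh_3394 or KO-labelled DOX mouse 20, 5 without WT-labelled DOX mouse 24 and 15 without WT-labelled vehicle mouse 1. The DOX count within 5 Mb was 6 without WT-labelled DOX mouse 21.

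**Figure D3:**
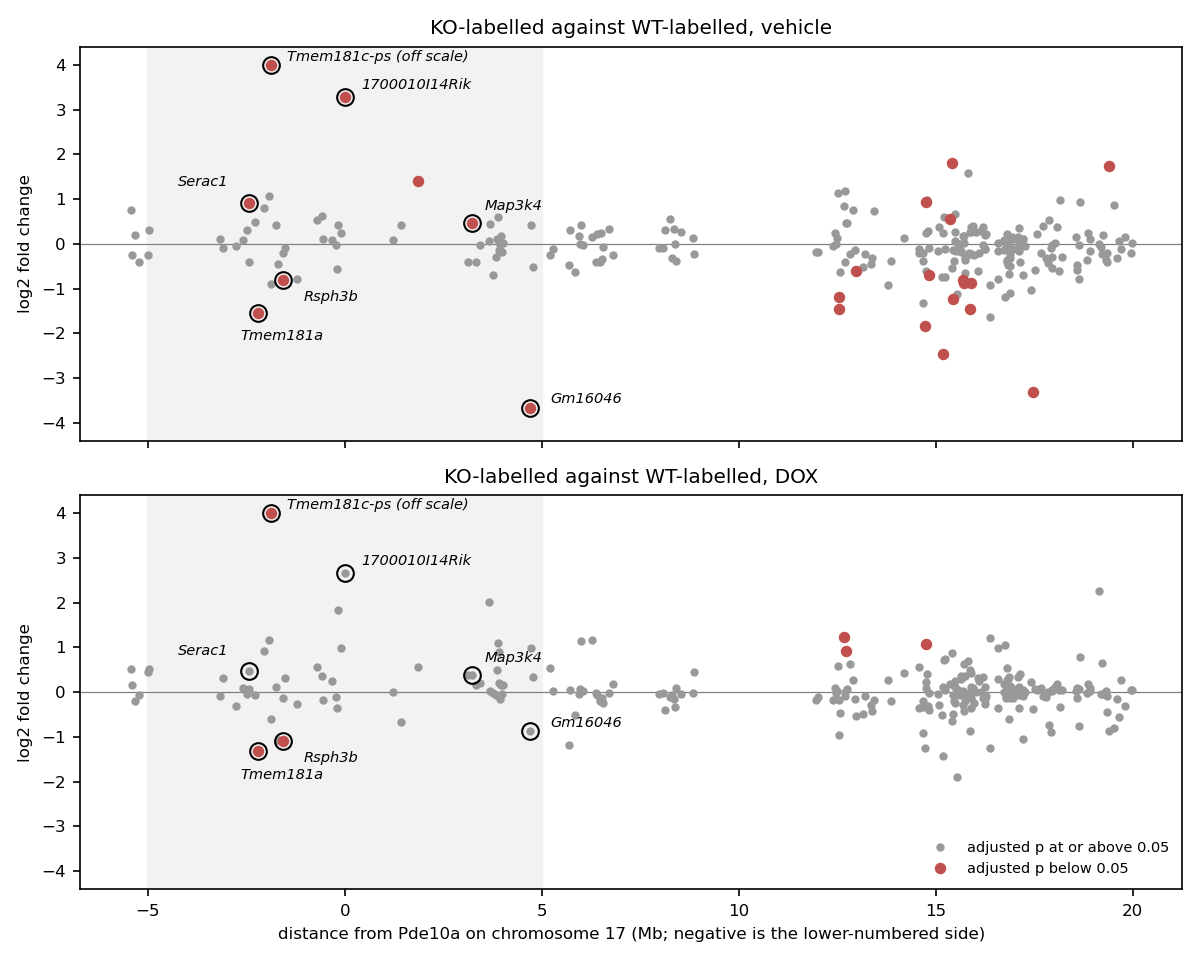
log2 fold change, KO-labelled over WT-labelled, of each tested gene within 20 Mb of Pde10a on chromosome 17, against its distance in Mb. Vehicle is at the top and DOX at the bottom. Red points have an adjusted p below 0.05 by edgeR, circles mark the 7 genes and shading marks 5 Mb on each side. Pde10a and tested genes farther than 20 Mb are not drawn. Tmem181c-ps, with no count in WT-labelled libraries, is placed at the upper edge. Between 10 and 20 Mb, 16 genes were called under vehicle and 3 under DOX.

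DOX against vehicle within a genotype label was not the contrast that chose the genes, and it was tested. It uses the same libraries and values as the choice, so these tests are not independent of it and can be biased by it. In WT-labelled hearts, 1 of the 6 genes with counts, Rsph3b, rose, against 18.6% of all genes tested. It averaged 15.1 ± 0.724 CPM in WT-labelled DOX hearts and 11.4 ± 0.369 CPM in WT-labelled vehicle hearts (SD, n = 3 each), higher in each of the 3 DOX libraries than in any vehicle one (log2 fold change 0.41, SE 0.127, adjusted p = 0.0437 by edgeR's quasi-likelihood test). With Rsph3a added to it, the log2 fold change was 0.38 (SE 0.11, adjusted p = 0.0334). These p-values measure the spread between separate animals and take no account of how the genes were chosen.

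The call of Rsph3b was close to the threshold. Its adjusted p by edgeR was 0.13 without WT-labelled DOX mouse 22, 0.117 without WT-labelled DOX mouse 24 or WT-labelled vehicle mouse 2, and 0.105 without WT-labelled vehicle mouse 3. It was 0.0505 and 0.0622 without KO-labelled DOX mice 19 and 20, and 0.0504 and 0.0626 without KO-labelled vehicle mice veh_3394 and veh_3395. The counts of these mice enter through the shared estimate of spread, the filter, the scaling and the adjustment over all genes. Of 5 ciliated cell markers, 4 had a row, and they summed to 0.317 to 0.364 CPM in WT-labelled DOX hearts and 0.173 to 0.397 CPM in WT-labelled vehicle hearts. Cardiomyocyte markers summed to 48010 to 60350 CPM in WT-labelled DOX hearts and 62620 to 73380 CPM in WT-labelled vehicle hearts. In the same hearts, 5 endothelial markers summed to 477.8 to 565.9 CPM with DOX and 640.8 to 849.2 CPM with vehicle, and 5 smooth muscle and pericyte markers to 636.1 to 776.3 CPM with DOX and 789 to 928.7 CPM with vehicle. The 5 erythroid markers summed to 0.144 to 0.395 CPM with DOX and 50.8 to 172.1 CPM with vehicle, and the 4 neutrophil markers to 8.12 to 30.8 CPM with DOX and 1.96 to 3.21 CPM with vehicle. The part of these markers in the change of Rsph3b was not tested.

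None of the other genes with counts in WT-labelled hearts passed the test by edgeR. Serac1 had a log2 fold change, DOX over vehicle, of 0.44 (SE 0.22, adjusted p = 0.169), with 7.98 to 9.50 CPM in WT-labelled DOX hearts and 4.21 to 9.03 CPM in WT-labelled vehicle hearts. Without WT-labelled vehicle mouse 1, the highest of its group, the log2 fold change was 0.78 and the adjusted p 0.00959 by edgeR. The choice of Serac1 used these vehicle values, and leaving out the highest lowers their mean. No effect of DOX is therefore read from that p. Gm16046 had -1.32 (SE 0.669) on 25 counts in WT-labelled DOX libraries and 54 in WT-labelled vehicle libraries. It reached the filter's level in 1 of 3 WT-labelled DOX libraries and in 3 of 3 WT-labelled vehicle libraries, so it was kept for the group in which it is high and no p is given. Map3k4 had 0.11 (SE 0.1, adjusted p = 0.448), Tmem181a -0.11 (SE 0.129, adjusted p = 0.574) and 1700010I14Rik 0.72 (SE 0.979, adjusted p = 0.623).

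In KO-labelled hearts DOX called none of the 7 genes by edgeR or DESeq2, and by edgeR 0.0136% of all genes tested. Their log2 fold changes, DOX over vehicle, were 0.12 for Tmem181a (SE 0.142), 0.14 for Tmem181c-ps (SE 0.29), 0.13 for Rsph3b (SE 0.133), 0.03 for Map3k4 (SE 0.0997), -0.01 for Serac1 (SE 0.214), 0.09 for 1700010I14Rik (SE 0.517) and 1.47 for Gm16046 (SE 1.08). The lowest unadjusted p among them was 0.199, for Gm16046, so none was below 0.05. A miss of the threshold does not show that DOX left these genes as they were, and Gm16046 in particular could not be read at 12 counts in KO-labelled DOX libraries and 4 in KO-labelled vehicle libraries.

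Whether DOX acted differently in the labels is the interaction, which equals the difference between the contrasts that chose the genes. It called none of the 6 genes with counts in all groups, and 0.21% of all genes tested. Because of that choice, nothing is read from this count and no p is given for single genes. Rsph3b had an interaction, taken as KO minus WT, of -0.28 (SE 0.184). Its rise in WT-labelled hearts is not shown to be absent from KO-labelled ones. For Gm16046 the interaction was 2.79 (SE 1.27), and that gene passed the low-count filter mainly through WT-labelled vehicle libraries.

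**Figure D4:**
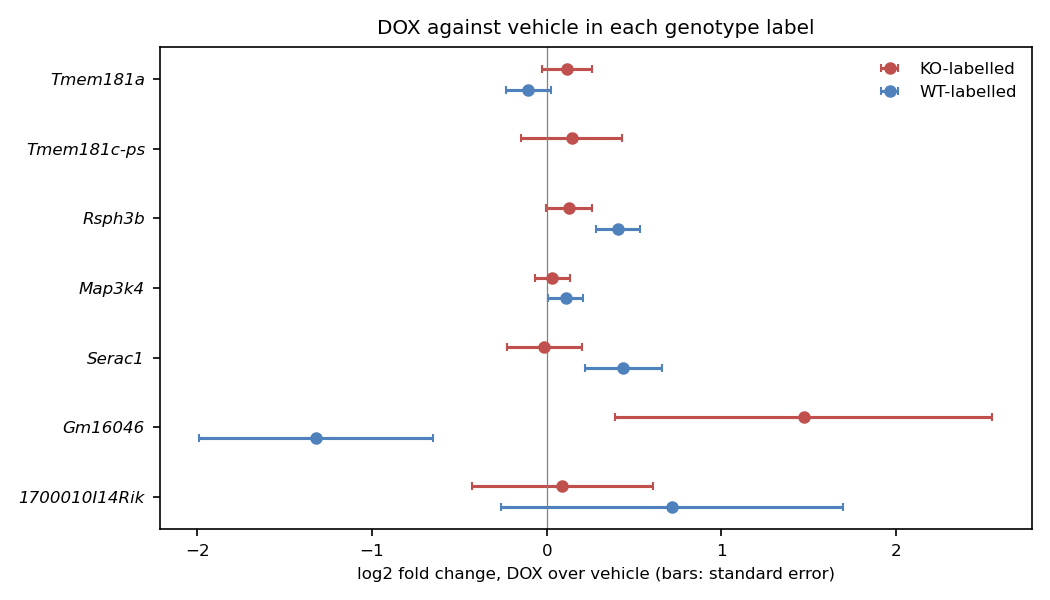
log2 fold change, DOX over vehicle, of the 7 genes in KO-labelled and WT-labelled hearts, with bars for the standard error of the edgeR fit; Tmem181c-ps has no value in WT-labelled hearts, where it had no counts. Rsph3b in WT-labelled hearts, at 0.41, is the point whose adjusted p was below 0.05.

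Among genes of the cascade of Map3k4, some rose and more fell in WT-labelled hearts given DOX, at a share near that of all genes. Of 26 genes of a list of MAP3K4, p38 and JNK signalling, 25 were tested, and 2 rose and 4 fell in WT-labelled hearts, where 18.6% of all genes tested were called. Map2k4, a kinase that activates JNK and p38, rose to 55.3 ± 2.47 CPM in WT-labelled DOX hearts, against 42.3 ± 7.31 CPM in WT-labelled vehicle hearts (log2 fold change 0.39, SE 0.117, adjusted p = 0.0398 by edgeR). Mef2a, a transcription factor phosphorylated by p38, also rose (log2 fold change 0.48, adjusted p = 0.025). Gadd45a, an activator of MAP3K4, fell to 6.32 ± 0.213 CPM, against 10.1 ± 0.966 CPM with vehicle (log2 fold change -0.68, SE 0.17, adjusted p = 0.0234). Among the others that fell were the p38 kinases Mapk11 (-0.62) and Mapk12 (-0.41) and the adaptor Traf4 (-0.73). The median log2 fold change was 0.01 over the list and -2.3e-05 over all genes tested in WT-labelled hearts. In KO-labelled hearts DOX called none of the 25, with a median of 0.05 over the list and 0.01 over all genes tested, though Gadd45a had a like value of -0.70 (SE 0.168, adjusted p = 0.334). Between the labels, the only gene of the list called under vehicle besides Map3k4, which was chosen on that contrast, was Mef2c (log2 fold change 0.44, adjusted p = 0.0361 by edgeR), where 2.88% of all genes tested were called. None was called under DOX.

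The lists around Serac1 and Rsph3b held called genes in WT-labelled hearts given DOX at about the share of all genes tested, 18.6%. Of 17 tested genes of phosphatidylglycerol and cardiolipin metabolism, 1 rose and 2 fell in WT-labelled hearts given DOX and none was called in KO-labelled hearts. Cds2, which makes CDP-diacylglycerol, rose (log2 fold change 0.70, adjusted p = 0.0171), and Crls1, the cardiolipin synthase (-0.65, adjusted p = 0.0172), and Prelid1, a carrier of phosphatidic acid in mitochondria (-0.66, adjusted p = 0.0265), fell. Of 21 genes of the radial spoke and axoneme, 10 were tested. In WT-labelled hearts given DOX, Rsph3b rose and Dynll1, a dynein light chain shared by many complexes, fell (-0.91, SE 0.244, adjusted p = 0.028), and none was called in KO-labelled hearts.

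Over the 12 libraries, the 2 genes whose log2 CPM most resembled each of the 7 were as follows. Most genes tested lie on other chromosomes, so the chromosomes given are not read as a result. The values are Pearson's r, given as a description, since all share the libraries and the split by label. For Tmem181a they were Atp6v0c-ps2 on chromosome 6 (r = -0.991) and Wdfy1 on chromosome 1 (r = -0.989), and for Tmem181c-ps Wdfy1 (r = 0.989) and Tmem181a (r = -0.989). For Map3k4 they were Fbxo10 on chromosome 4 (r = 0.962) and Pde10a itself (r = 0.961). For Serac1 they were Pcgf5 (r = 0.986) and Prkaa2 (r = 0.981), and for Rsph3b Fgf2 (r = -0.95) and Gpr183 (r = -0.947). Those of the low-count genes were Rell1 (r = -0.943) and D16Ertd472e (r = 0.939) for 1700010I14Rik, and AC149090.1 (r = 0.921) and Timm29 (r = -0.92) for Gm16046.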

How the data were processed

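The authors deposited raw counts per gene symbol in a file for each library, and these were used unchanged. The submitters' processing notes name featureCounts, Subread 1.6.4, STAR 2.7.0f and fastp 0.20.0. Build, annotation, strand setting and treatment of multiply mapping reads were not given in the sources used here. Symbols were matched to GENCODE M21 on GRCm38 (98.3% of 55453), which gave positions and transcript sequences, and 108 symbols with several IDs were left out of positions.

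In R 4.3.3, genes were kept with filterByExpr by group (14757), scaled with TMM, and fitted in edgeR 4.0.16 with 1 mean per group over all 12 libraries. Contrasts were tested by quasi-likelihood F, adjusted after Benjamini-Hochberg, with a threshold of 0.05, and standard errors came from the fold change and its F. The biological coefficient of variation was 17.5%. Log2 CPM for correlations used a prior count of 2. The test was also run on simulated data, with the same spread for all genes and changes only in well-counted ones. That run does not cover the low-count genes. Alternatives were DESeq2 1.42.0, its size factors, no TMM, no filter, a fit of the groups compared, the title suffix as covariate, copies summed, and libraries left out.

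The members, lists and alternatives were chosen with earlier results of these data known. Named were the 7 genes, Pde10a, called or nearest genes within 5 Mb, copies, overlapping genes, the 2 most alike genes of each and up to 6 called genes per list. Ezr was named for its place at the threshold, after its value was seen. Intervals and limits of 3 counts cover counting error only. The result for 1 called gene within 5 Mb is not reported here.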

Additional observations from a re-analysis of the deposited data

How the results depend on the processing

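No paired analysis was possible because mouse numbers differ between the groups. Counts of called genes moved with the settings, and the cause was not tested. Between the labels under vehicle (425 called, 8 within 5 Mb), they were 2088 and 17 with no filter, 1657 and 13 by DESeq2, 222 and 5 in a fit of the groups compared, 211 and 4 with the title suffix in the model, and 68 and 4 without KO-labelled mice veh_3394 and 18. With copies summed, 5 were called within 5 Mb. Leaving out 1 library gave 42 (without KO-labelled vehicle mouse veh_3393) to 2670 (without WT-labelled vehicle mouse 1), and 3 to 15 within 5 Mb. Between the labels under DOX (62 and 3), they were 1152 and 9 with no filter, 456 and 7 by DESeq2, 5 and 1 in the fit of the groups compared, 24 without mice veh_3394 and 18, and 1 within 5 Mb with copies summed. Leaving out 1 library gave 8 (KO-labelled DOX mouse 20) to 727 (WT-labelled DOX mouse 21), and 3 to 6 within 5 Mb. DOX in WT-labelled hearts (2743) gave 20 in the fit of the groups compared, 1595 with the suffix, and 183 (WT-labelled DOX mouse 24) to 4188 (WT-labelled vehicle mouse 1) with 1 library left out. DOX in KO-labelled hearts (2) gave 0 with no TMM, in the fit of the groups compared and with the suffix, 309 with no filter, 63 by DESeq2, 1 without mice veh_3394 and 18, and 0 to 4 with 1 library left out; 789 genes had an unadjusted p below 0.05. The interaction (31) gave 51 with no TMM, 1093 with no filter, 364 by DESeq2, 2 without mice veh_3394 and 18, and 0 (KO-labelled DOX mouse 20) to 515 (WT-labelled DOX mouse 21) with 1 library left out; a fit of 2 groups cannot give it.

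Of the 7 genes, the label contrasts reversed only for Tmem181a with copies summed (log2 0.0765 under vehicle and 0.237 under DOX). The rise of Rsph3b in WT-labelled hearts was lost with no filter (adjusted p = 0.0904 by edgeR), in the fit of the groups compared (0.102), with the suffix (0.0841) and without 8 single libraries. Uncalled log2 values near 0 changed sign. These were, for DOX in KO, Tmem181c-ps (-0.0461 with the suffix, -0.052 to 0.381 with 1 library left out), Serac1 (0.0199 with no TMM, -0.0879 to 0.11) and 1700010I14Rik (-0.101 with the suffix, -0.0959 to 0.375). With 1 library left out, 1700010I14Rik ran between -0.259 and 1.48 for DOX in WT and between -1.39 and 0.351 for the interaction, and Map3k4 between -0.145 and 0.0212 for the interaction. Depth limits Gm16046 and 1700010I14Rik, with at most 22 and 15 counts in any library.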

Other observations

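Tested genes of chromosome 17 that were called between the labels in at least 1 treatment and lay beyond 5 Mb from Pde10a began at 12.5 Mb, and those named here were chosen after their values were seen. Zfp52, a zinc-finger gene 12.5 Mb away, had a log2 fold change, KO over WT, of -0.95 under DOX (adjusted p = 0.0639 by edgeR, not called) and -1.19 under vehicle (adjusted p = 0.0168). Zfp983, 12.7 Mb away, had 1.23 under DOX (adjusted p = 0.0351 by edgeR) and 0.85 under vehicle (adjusted p = 0.0505, not called). The antisense RNA 9530082P21Rik, 14.8 Mb away, was called under both treatments, at 1.08 under DOX (adjusted p = 0.0385 by edgeR) and 0.93 under vehicle (adjusted p = 0.0316). Fkbp5, a glucocorticoid-induced co-chaperone 19.4 Mb away, had 1.75 under vehicle (adjusted p = 0.0302 by edgeR) and -0.87 under DOX (adjusted p = 0.257).

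Another gene, picked after its values were seen, and its pseudogene differed in opposite directions, as Tmem181a and Tmem181c-ps did. Atp6v0c, a subunit of the vacuolar proton pump 15.2 Mb from Pde10a, averaged 18 ± 10.7 CPM in KO-labelled DOX hearts and 48.1 ± 3.50 CPM in WT-labelled DOX hearts, and 6.86 ± 0.738 CPM in KO-labelled vehicle hearts and 37.6 ± 3.36 CPM in WT-labelled vehicle hearts (SD, n = 3 each). Its pseudogene Atp6v0c-ps2 on chromosome 6 averaged 15.1 ± 5.41 CPM in KO-labelled DOX hearts and 0.108 ± 0.0356 CPM in WT-labelled DOX hearts, and 21.3 ± 1.97 CPM in KO-labelled vehicle hearts and 0.0378 ± 0.035 CPM in WT-labelled vehicle hearts. For Atp6v0c the log2 fold change, KO over WT, was -1.42 under DOX (SE 0.362, adjusted p = 0.105 by edgeR, not called). Under vehicle it was -2.45 (SE 0.385, adjusted p = 0.0115 by edgeR). Among KO-labelled DOX hearts, Atp6v0c had 5.71 CPM in mouse 18, against 23.4 and 24.9 CPM in mice 19 and 20. How reads shared by such copies were assigned was not tested.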
